A study of Ischnura elegans with 24 samples.

Results

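Southern larvae of Ischnura elegans, the blue-tailed damselfly, were reared at 20 °C or 24 °C, and their read counts are described here. The counts comprise 12 of the 24 libraries of the series, and were chosen by their labels alone as the libraries of southern populations 1, 2 and 3. RNA came from whole bodies of male larvae in the final instar, 6 larvae per population and temperature, pooled into 2 libraries (a and b), which gives 3 larvae per pool if they were split evenly. Thus 6 libraries at 24 °C stood against 6 at 20 °C. Larvae came from several mothers per population, were given a temperature at random once hatched, and were raised one by one on Artemia nauplii. The other 12 libraries came from 3 northern populations treated in the same way. A pool averages several larvae and all their tissues, so a change in the amount of a tissue and a change in transcription within it cannot be told apart.

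Damselflies are ectotherms, and their larvae develop in water whose temperature sets the pace of growth and metabolism. The change of a trait with the rearing temperature, without a change of genotype, is called thermal plasticity, and populations from cooler and warmer latitudes can differ in how much of it they show. The series compares latitudes in this respect, and the southern libraries give the transcriptional plasticity of the populations from the lower latitude.

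The features counted were Trinity contigs, that is, transcripts put together from the reads themselves with no genome as a guide. Contigs carry identifiers and no gene names, and 0 of the identifiers matched the RefSeq gene table of the species, so no pathway is described. At most 2 contigs in each direction are named for a comparison. Southern library totals were 12061616 to 16868514 counts, and a count of 3 corresponded to 0.178 to 0.249 CPM, the unit of level used here, which is the count relative to the library total. After contigs with low counts and contigs at 0 in 10 or more of the 24 libraries were left out, 31096 contigs were tested for a temperature effect shared by the southern populations, with population as a block.

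For most contigs the fitted response of southern larvae to warming by 4 °C was small, with a median SE of 0.25 log2 units. Among the 31096 contigs the median absolute log2 fold change (24 against 20 °C) was 0.16, and 90% of contigs lay under 0.57. With TMM scaling 15440 contigs (49.7%) were higher at 24 °C, and the median log2 fold change was -0.0018. This scaling itself centres the log ratios between libraries near 0, so the even split of directions is not a result about warming. Scaling by library totals alone put 35.3% of contigs higher. A single contig passed an adjusted p under 0.05 (0.00322% of those tested), and it rose. At an unadjusted p under 0.05 there were 2102 contigs (6.76%), 1056 higher (3.4%) and 1046 lower (3.36%) at 24 °C, where uniformly distributed p-values would give 5% in all. Of these, 50.2% were higher at 24 °C, against 20.8% of those found with library totals alone.

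The low number of calls does not show that the other contigs were unaffected, and the intervals state what can be bounded. For 21692 contigs (69.8%) the 95% interval of the log2 fold change lay wholly between -1 and 1, so that a 2-fold change in either direction was outside it. For 9702 contigs (31.2%) it lay wholly between -0.5 and 0.5. A fitted change of at least 2-fold was seen in 801 contigs, 362 higher and 439 lower, but these were scarce transcripts, with a median level of -0.34 log2 CPM against 1.41 for all tested contigs. Their median standard error was 0.71 log2 units, 331 of them had an unadjusted p under 0.05 and 1 passed the adjusted threshold.

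**Figure D1:**
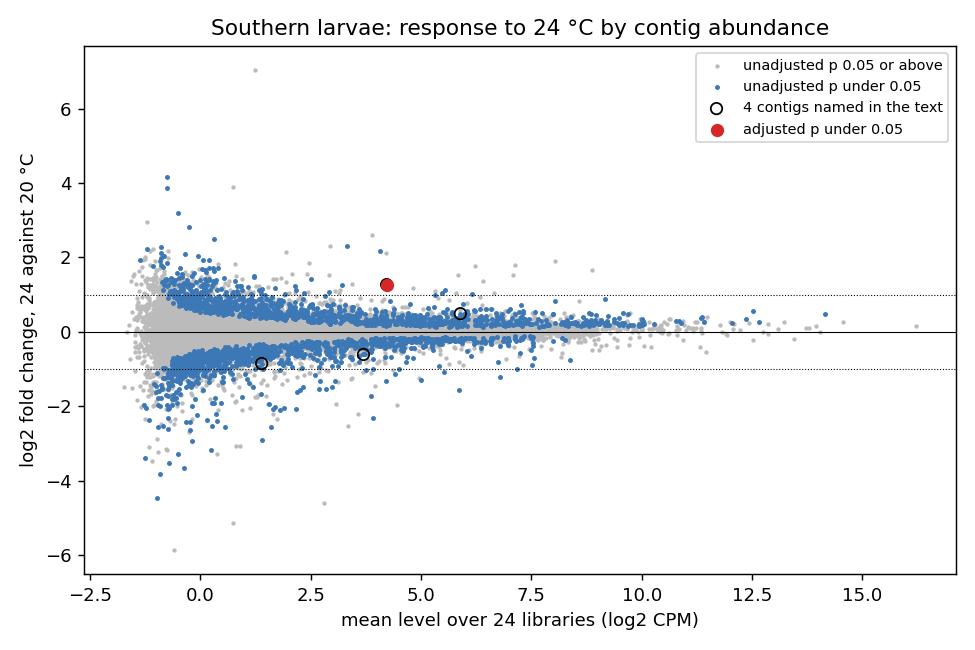
Each point is 1 of 31096 contigs, with its mean level over the 24 libraries in log2 CPM on the x axis and its southern log2 fold change at 24 against 20 °C on the y axis; dotted lines mark 2-fold changes. The spread is widest among scarce contigs, and the single contig with an adjusted p under 0.05 (red) lies at 4.22 log2 CPM and a log2 fold change of 1.27.

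TRINITY_DN121930_c0_g1_i6 was the contig that rose. Its level at 20 °C was 8.03 CPM in the lowest of the 6 southern libraries, 9.405 CPM in the median and 12.27 CPM in the highest, and at 24 °C it was 15.91, 24.33 and 29.4 CPM. Every library at 24 °C was above every library at 20 °C. The log2 fold change was 1.27 ± 0.18 (SE, n = 6 libraries per temperature; 95% interval 0.89 to 1.65; edgeR quasi-likelihood adjusted p = 0.0295). The 3 populations moved together, with log2 fold changes of 0.96 ± 0.31 (SE) in population 1, 1.59 ± 0.32 in population 2 and 1.26 ± 0.32 in population 3. In population 1 the pools stood at 10.58 and 9.739 CPM at 20 °C and at 15.91 and 23.51 CPM at 24 °C. In population 2 they went from 9.007 and 9.071 CPM to 25.14 and 29.4 CPM, and in population 3 from 12.27 and 8.03 CPM to 26.59 and 21.93 CPM.

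The rise of this contig had the same size in northern larvae, where the log2 fold change was 1.29 ± 0.18 (SE, edgeR adjusted p = 0.00175). The southern minus northern difference was -0.03 ± 0.25, with a 95% interval of -0.56 to 0.51. It was the only tested contig of its Trinity gene, and counts summed over Trinity genes gave 1.27 ± 0.18 (SE, edgeR adjusted p = 0.0277). The size was steady but the call was not: over 34 alternative settings the log2 fold change ranged from 1.06 to 1.48, while the adjusted p exceeded 0.05 in 19 of them (7.07e-07 to 0.953). Leaving out 1 library ended the call for southern_20 1b, 2a, 2b and 3b (edgeR adjusted p 0.0509, 0.227, 0.222 and 0.0815) and for southern_24 1b, 2a, 2b, 3a and 3b (0.176, 0.0997, 0.0779, 0.0783 and 0.0713).

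The contigs next in rank had smaller changes and did not pass the threshold. TRINITY_DN176168_c0_g1_i1 had a lowest, median and highest level of 46.67, 50.36 and 56.15 CPM at 20 °C and of 59.88, 72.98 and 86.39 CPM at 24 °C. Its groups did not overlap, and its log2 fold change was 0.49 ± 0.09 (SE, edgeR adjusted p = 0.137). The size was graded among populations, with 0.18 ± 0.12 in population 1, 0.49 ± 0.12 in population 2 and 0.80 ± 0.12 in population 3, although the test of a difference among them did not pass (edgeR adjusted p = 1). In northern larvae its log2 fold change was 0.61 ± 0.09 (SE, edgeR adjusted p = 0.00222).

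Of the contigs with lower levels at 24 °C, TRINITY_DN155481_c0_g1_i1 was at 3.161, 3.702 and 4.579 CPM (lowest, median, highest) at 20 °C and at 1.622, 2.234 and 2.303 CPM at 24 °C. The groups did not overlap, and the log2 fold change was -0.85 ± 0.15 (SE, edgeR adjusted p = 0.137), with -0.98, -0.69 and -0.89 in populations 1, 2 and 3. TRINITY_DN281742_c0_g1_i1 was at 12.92, 16.21 and 17.53 CPM at 20 °C and at 9.085, 10.02 and 12.87 CPM at 24 °C. Here the highest library at 24 °C (southern_24 2b, 12.87 CPM) came within 0.05 CPM of the lowest at 20 °C (southern_20 1a, 12.92 CPM). Its log2 fold change was -0.61 ± 0.11 (SE, edgeR adjusted p = 0.137), with -0.54, -0.54 and -0.76 in the 3 populations. In northern larvae these 2 contigs changed by -0.58 ± 0.16 and -0.49 ± 0.11 log2 units (SE, edgeR adjusted p = 0.0949 and 0.0471). For all 3 of these contigs DESeq2 gave an adjusted p under 0.05 (0.00126 to 0.00373), with log2 fold changes of 0.49, -0.85 and -0.61.

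**Figure D2:**
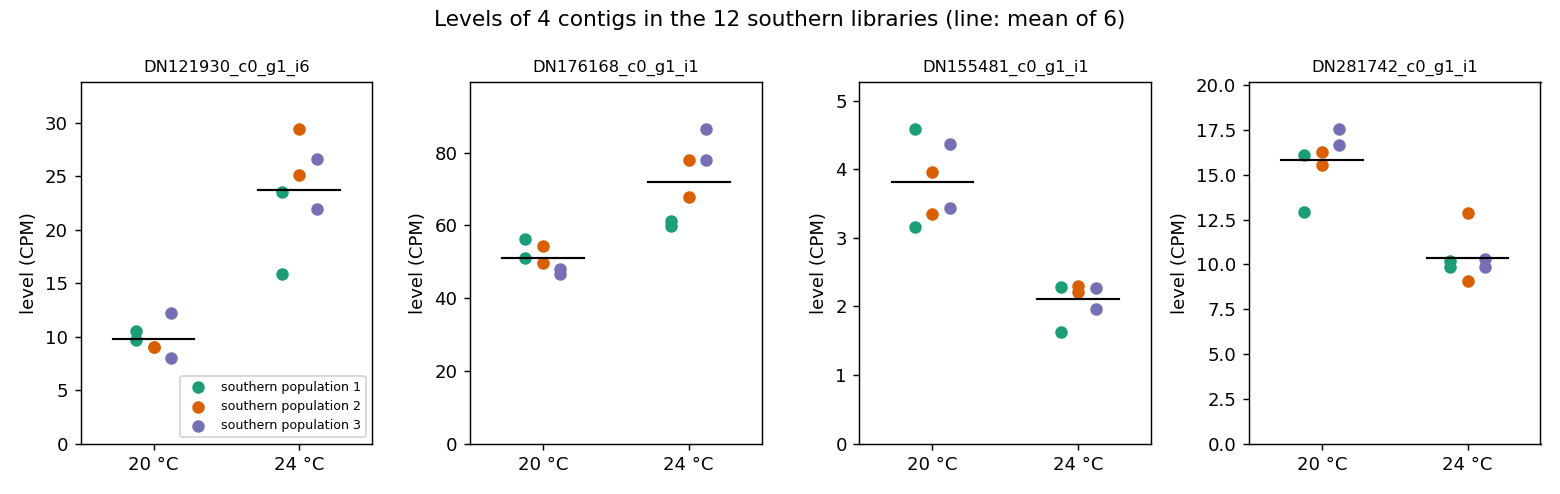
Each panel shows the level in CPM (y axis, from 0) of 1 contig in the 12 southern libraries at 20 and 24 °C; points are pools coloured by population and lines are means of 6 libraries. All 12 values separate by temperature in each panel, with TRINITY_DN281742_c0_g1_i1 closest to touching (12.87 CPM in southern_24 2b and 12.92 CPM in southern_20 1a).

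Complete separation of the temperatures was seen in 223 contigs, 117 (0.376% of the tested contigs) with all 6 libraries at 24 °C above all 6 at 20 °C and 106 (0.341%) with the reverse, together 0.717%. Most of these separations were small. Their median absolute log2 fold change was 0.39, and 28 of the 223 differed by at least 2-fold. Contigs that were higher at 24 °C were abundant (median 5.84 log2 CPM) and differed little (0.31 log2 units), whereas those that were lower had a median level of 2.64 log2 CPM and a median size of 0.55. The 223 contigs all moved the same way in the 3 southern populations, which the separation itself fixes.

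The 223 contigs were chosen on southern levels alone, so their northern response shares no library with the choice. Of the 223 contigs 192 (86.1%) had the same sign of response in northern larvae, against 60.2% of all tested contigs. The 223 were more abundant (median 4.39 against 1.41 log2 CPM), and the share over all tested contigs grew with abundance, as given below. The median northern response along the southern direction was 0.22 log2 units, against a southern median of 0.39, a size that the choice on these libraries raises. The 2102 southern contigs at an unadjusted p under 0.05 were chosen less independently, since northern libraries entered the estimate of the spread behind that p. Among them the share with the same northern sign was 79.7%, with 84.3% for those higher at 24 °C and 75.1% for those lower. The share grew with abundance: among these contigs it was 73.9% under 0 log2 CPM, 75.7% from 0 to 2, 78.3% from 2 to 4, 87.2% from 4 to 6 and 92.7% (229 of 247) at 6 and above. Over all tested contigs of the same bins it was 56.8%, 57.9%, 61.0%, 64.6% and 71.4%. Contigs share libraries and are not independent, so no p is given across them.

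The difference between the latitudes was then tested contig by contig. No contig passed (0 of 31096 by edgeR, with 1517 at an unadjusted p under 0.05, or 4.88%), and DESeq2 called 15. Of the 1517, 620 (1.99%) had the more positive response in southern larvae and 897 (2.88%) in northern larvae. TRINITY_DN5756_c7_g1_i4 came closest. In southern larvae it was at 9.583, 10.26 and 12.11 CPM (lowest, median, highest) at 20 °C and at 5.013, 6.476 and 8.539 CPM at 24 °C. The groups did not overlap, and the southern change on the log2 scale was -0.67 ± 0.16 (SE, edgeR adjusted p = 0.335). In northern larvae the log2 fold change was 0.70 ± 0.16 (SE, edgeR adjusted p = 0.0502), and the difference of -1.37 ± 0.23 did not pass (edgeR adjusted p = 0.219). TRINITY_DN222740_c0_g1_i1 was the first in the other direction. It was flat in southern larvae, with medians of 150.9 CPM at 20 °C and 158.1 CPM at 24 °C and a log2 fold change of 0.02 ± 0.08 (95% interval -0.15 to 0.19). It fell by 0.49 ± 0.08 log2 units in northern larvae (SE, edgeR adjusted p = 0.00875), and the difference of 0.51 ± 0.12 did not pass (edgeR adjusted p = 0.672). DESeq2 passed both differences (adjusted p = 0.000644 and 0.0368), and the first also passed in edgeR without the filter on contigs at 0 (adjusted p = 0.0318). Its log2 difference without that filter was the same, at -1.37, and 8 contigs were called. An adjusted p falls when more contigs of small p join the list, so this pass is not added evidence for the difference. Over the 16 alternatives of each, the adjusted p was 0.000644 to 0.542 for TRINITY_DN5756_c7_g1_i4 and 0.0368 to 0.998 for TRINITY_DN222740_c0_g1_i1.

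The fitted size of the southern response and its error both differed between abundance bins, and in each of the 5 bins the median absolute log2 fold change lay below the median SE. With no effect at all the median size would also lie below the SE, so this does not show that responses were absent. Over all tested contigs the median F of the edgeR test was 0.514, where no effect would give 0.472. Under 0 log2 CPM (6992 contigs) the median absolute log2 fold change was 0.32 and the median SE 0.43, and 25.9% of contigs had an interval within 1 log2 unit of 0. From 0 to 2 log2 CPM (11045 contigs) the median was 0.20 and the share 69.3%, and from 2 to 4 (6523 contigs) they were 0.12 and 91.3%. The smallest changes were found from 4 to 6 log2 CPM (4571 contigs), with a median of 0.081, a median SE of 0.10 and 96.2% of intervals within 1 log2 unit. At 6 and above (1965 contigs) the median was 0.095 with the same median SE of 0.10. The share at an unadjusted p under 0.05 was 5.81%, 6.26%, 6.35%, 7.53% and 12.6% in the 5 bins from scarce to abundant.

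The most abundant transcripts also leaned upward. Of the 1965 contigs at 6 log2 CPM and above, 63.0% had a higher mean log2 level at 24 °C (38.8% when libraries were scaled by their totals alone), against 46.4% under 0 log2 CPM and 52.4% from 4 to 6. Of their 247 contigs at an unadjusted p under 0.05, 192 were higher and 55 lower at 24 °C. The lean was 55.9% in population 1, 57.5% in population 2 and 60.8% in population 3, and 63.2%, 60.2% and 58.3% of the contigs were higher in the mean of the other two populations when populations 1, 2 and 3 were left out. In size the lean was slight, with a median of 0.044 log2 units above the median of all contigs. The percentage was 63.1% with RLE and 62.1% with upper-quartile scaling. Library totals moved the median of all contigs to -0.083, and relative to that median the bin still stood 0.040 log2 units higher.

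**Figure D3:**
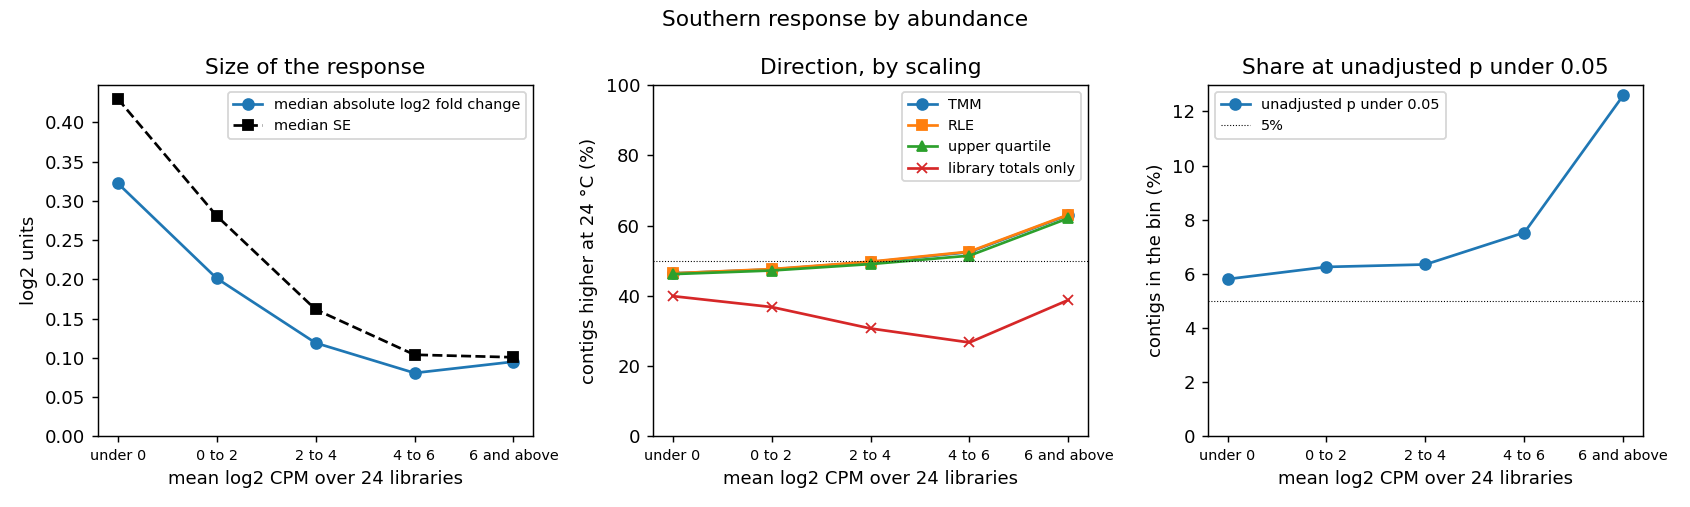
The x axis of each panel gives bins of mean log2 CPM; the panels show the median absolute log2 fold change and median SE (left), the percentage of contigs higher at 24 °C under 4 scalings (middle, dotted line at 50%), and the percentage at an unadjusted p under 0.05 (right, dotted line at 5%). The median SE falls with abundance while the median size is lowest from 4 to 6 log2 CPM (0.081) and 0.095 in the top bin, and the most abundant bin reaches 63.0% higher with TMM scaling (38.8% with library totals) and 12.6% at an unadjusted p under 0.05.

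Measures of whole libraries did not separate the temperatures. The share of counts in the 100 most abundant contigs was 40.6% ± 2.76 (SD, n = 6) in the 20 °C libraries and 42.2% ± 2.88 in the 24 °C libraries (exact permutation within populations, two-sided p = 0.426). The number of contigs at a count of 0 was 1239 ± 162 (SD) at 20 °C and 1331 ± 95.9 at 24 °C (exact permutation p = 0.176), and the TMM scaling factor was 1.08 ± 0.0651 and 1.02 ± 0.0767 (exact permutation p = 0.194). The effective number of contigs, the exponential of the Shannon entropy, was 1834 ± 275 and 1643 ± 269 (exact permutation p = 0.324). Adjusted over the 4 measures the p-values were 0.389 to 0.426, and the smallest p that the 216 arrangements allow is 0.00926.

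Temperature accounted for 9.21% of the sum of squares of log2 CPM among the 12 southern libraries. Population held 22.9%, the part of the temperature response that varied among populations 16.3%, and differences between the pools of a population and temperature 51.6%. Differences between pools alone also put a share in that varying part, and whether 16.3% exceeded it was not tested. Permuting temperature within populations in all 216 ways gave a median temperature share of 8.48% and a highest of 11.4%. The observed 9.21% was thus within the permuted range (exact permutation p = 0.194, smallest possible 0.00926). In northern larvae temperature held 11.8%, the highest of its own 216 arrangements (exact permutation p = 0.00926). The difference between the latitudes in this share was not tested.

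The 3 southern populations agreed weakly. All 3 had the same sign of response in 28.9% of contigs (9001, of which 4368 higher and 4633 lower at 24 °C), where independent signs would give 25.0%. The share rose from 27.4% under 0 log2 CPM to 39.8% at 6 and above. Among the 8818 contigs of at least 10 CPM, which suffer least from counting error, it was 31.7%. Across these contigs the rank correlation was highest between populations 1 and 2, with a Spearman rho of 0.226 (Pearson r = 0.0467), while rho was 0.0218 between populations 1 and 3 (r = -0.0710) and 0.0291 between populations 2 and 3 (r = 0.0534). The populations share no library, but contigs of 1 library share its composition, and these correlations carry no p. The pools of a single population agreed weakly too. Across the same contigs, rho between the responses of pools a and b was 0.0858, 0.199 and 0.349 in populations 1, 2 and 3. Pearson r was 0.137, 0.0645 and 0.149. These responses paired the pools of both temperatures by letter. With the letters crossed between temperatures, r was -0.00287, -0.170 and 0.0126, so the agreement of pools depended on the pairing. The weak agreement between populations is therefore not shown to be a difference among them.

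Contigs with a sizeable response in each of 2 populations were also counted by direction, without a test. Over all tested contigs the sign was the same in 54.0% for populations 1 and 2, 52.5% for populations 1 and 3 and 51.3% for populations 2 and 3. Counting contigs of at least 10 CPM with a change of at least 0.5 log2 units in both, populations 1 and 2 shared 237, of which 165 moved the same way (118 lower and 47 higher in both) and 72 in opposite ways. Populations 1 and 3 shared 293, of which 112 moved the same way and 181 in opposite ways, 147 of these lower in population 1 and higher in population 3. Populations 2 and 3 shared 313, with 130 in the same and 183 in opposite directions. The lists differ in size and in direction. In population 3, 1150 contigs reached 0.5 log2 units (799 higher, 351 lower). In population 1 there were 631 (258 higher, 373 lower) and in population 2 there were 587 (297 higher, 290 lower). Such unequal directions change the share of matches that unrelated responses would give.

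**Figure D4:**
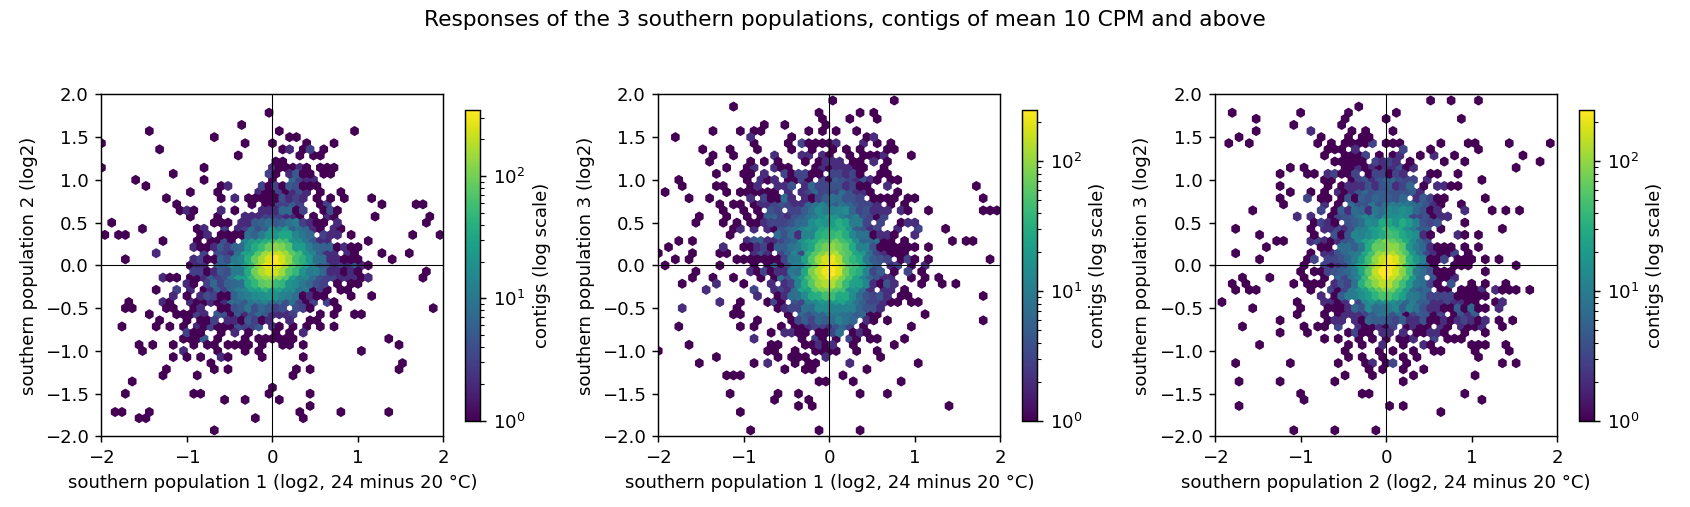
Each panel sets the log2 responses (24 minus 20 °C) of 2 southern populations against each other for contigs of at least 10 CPM, with the number of contigs per hexagon on a log colour scale; 90, 87 and 87 of 8818 contigs fall beyond the axis limit of 2. The cloud of populations 1 and 2 leans along the diagonal (rho 0.226), and the panels with population 3 show no lean (rho 0.0218 and 0.0291).

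How far a response carried over was also read from a population left aside. The 500 contigs with the smallest p in the mean of populations 2 and 3 had the same sign in population 1 in 374 cases (74.8%), against 54.5% of all contigs, and their median response there along the direction seen in the other two was 0.18 log2 units against 0.73 in the populations that chose them. With population 2 left aside the same sign was seen in 324 (64.8%, against 53.3% of all contigs), with a median of 0.10 against 0.75. With population 3 left aside it was seen in 292 (58.4%, against 52.4%), with a median of 0.12 against 0.96. The sizes in the populations that chose the contigs are raised by the choice. The population left aside still entered the estimate of the spread behind those p-values.

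Within populations, 2 pools stood against 2 pools. Population 1 had 0 called contigs with 1250 at an unadjusted p under 0.05 (4.02%), 552 higher (1.78%) and 698 lower (2.24%). Population 2 had 0 with 1209 (3.89%), 591 higher (1.9%) and 618 lower (1.99%). By DESeq2 the called contigs numbered 2 and 12. In population 3, 10 contigs passed (0.0322%) and 2355 had an unadjusted p under 0.05 (7.57%), 1354 of them higher (4.35%) and 1001 lower (3.22%) at 24 °C. All 10 rose. No contig passed the test of a difference among the 3 responses (0 of 31096 by edgeR, 1282 or 4.12% at an unadjusted p under 0.05; 17 by DESeq2). With a median SE of 0.43 to 0.44 log2 units for the response of a single population, this count shows neither that the populations responded alike nor that population 3 responded differently.

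TRINITY_DN187894_c0_g1_i1 had the smallest p in population 3. Its pools stood at 26.17 and 26.07 CPM at 20 °C and at 59.38 and 62.42 CPM at 24 °C. The log2 fold change there was 1.22 ± 0.15 (SE, n = 2 pools per temperature; edgeR adjusted p = 0.0141). In population 1 they went from 32.37 and 41.6 to 54.1 and 49.02 CPM (0.48 ± 0.15), and in population 2 from 48.57 and 48.1 to 40.05 and 47.09 CPM (-0.15 ± 0.15). Population 3 was thus the lowest of the 3 at 20 °C and the highest at 24 °C. The test of a difference among the 3 responses did not pass (edgeR adjusted p = 0.470). The call in population 3 was lost in 4 of 17 alternatives, which were the 12 southern libraries alone (edgeR adjusted p = 0.0781) and fits without southern_20 3a, southern_20 3b or southern_24 3a (0.164, 0.147 and 0.0647).

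TRINITY_DN121376_c0_g4_i1 had the smallest p in that test (edgeR adjusted p = 0.470). It rose in population 3 from 31.2 and 38.37 CPM to 125.1 and 113.8 CPM (log2 fold change 1.78 ± 0.24, SE, edgeR adjusted p = 0.0163), a call lost in the same 4 alternatives (0.112 to 0.230). In population 1 it was at 63.23 and 89.14 CPM at 20 °C and at 117.8 and 95.49 CPM at 24 °C, and in population 2 at 74.65 and 108.7 CPM and at 53.74 and 83.79 CPM. Population 3 was again the lowest at 20 °C. All 3 tested contigs of Trinity cluster DN121376, a grouping noticed after the values were seen, were among the 10 called in population 3, and reads shared between them could have been split. They are then not 3 separate observations. Over the 3 southern populations together their log2 fold changes were 0.55 to 0.61, and none passed (edgeR adjusted p = 0.633 to 0.744).

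Across the 10 contigs the log2 fold changes in population 3, which the choice on this population raises, ranged from 0.80 to 1.79. TRINITY_DN176168_c0_g1_i1, described above, was among them (0.80 ± 0.12, SE, edgeR adjusted p = 0.0339), although its call was lost without any single one of the 12 southern libraries (edgeR adjusted p = 0.0572 to 0.363). Beside these calls stand whole-library values that moved with temperature in population 3. Its TMM factors were 1.151 and 1.117 at 20 °C and 0.929 and 0.997 at 24 °C, and its 100 most abundant contigs took 39.2% and 37.4% of counts at 20 °C and 45.3% and 42.6% at 24 °C. In population 1 these shares were 42.7% and 43.1% against 41.9% and 41.6%, and in population 2 they were 37.9% and 43.5% against 37.2% and 44.7%. The part of this composition in the 10 calls was not tested. All of the 10 calls were lost without southern_20 3a, southern_20 3b or southern_24 3a, fits that leave 1 pool of population 3 at 1 temperature. The count of 10 was 4 to 6 without southern_20 1b or any single library of southern_24 from populations 1 and 2. It was 0 in a fit of the 12 southern libraries alone and 103 with DESeq2, which shared 7 of the 10 and gave no adjusted p for the other 3.

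**Figure D5:**
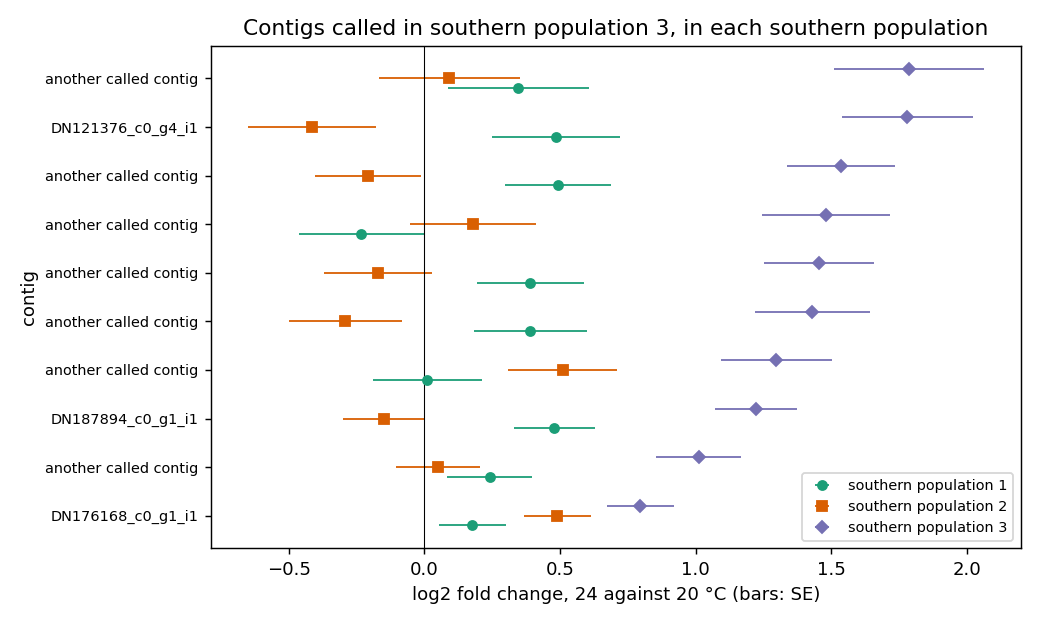
The x axis gives the log2 fold change at 24 against 20 °C with its SE, and each row is 1 of the 10 contigs called in southern population 3, with a symbol for each southern population. Population 3 lies from 0.80 to 1.79, sizes raised by the choice of contigs on its own response. The other populations lie nearer to 0, which the same choice favours.

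The first contigs of populations 1 and 2 did not pass. In population 1 TRINITY_DN3537_c16_g1_i4 was at 1.993 and 1.741 CPM at 20 °C and at 8.071 and 4.117 CPM at 24 °C (log2 fold change 1.70 ± 0.36, SE, edgeR adjusted p = 1), with 1.12 without southern_24 1a. The southern response over the 3 populations was 0.87 ± 0.24 (edgeR adjusted p = 0.435). TRINITY_DN1997_c19_g1_i1 was at 94.77 and 75.33 CPM at 20 °C and at 32.4 and 35.93 CPM at 24 °C in population 1 (-1.32 ± 0.29, SE, edgeR adjusted p = 1). In population 3 it went the other way, from 75.59 and 64.3 to 125 and 100.7 CPM (0.69 ± 0.29, edgeR adjusted p = 0.597), with population 2 between them (-0.39 ± 0.29). The test of a difference among the populations did not pass for it (edgeR adjusted p = 1).

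In population 2 TRINITY_DN141145_c0_g1_i2 was at 5.836 and 16.23 CPM at 20 °C and at 81.7 and 75.94 CPM at 24 °C (log2 fold change 2.83 ± 0.50, SE, edgeR adjusted p = 1; DESeq2 adjusted p = 5.34e-06). The log2 fold change was 3.75 without southern_20 2b and ranged from 2.28 to 3.75 without single libraries. The 20 °C pools of population 2 stood apart from those of populations 1 (120.3 and 98.87 CPM) and 3 (60.38 and 69.85 CPM), while its 24 °C pools lay within the range of the others (44.03 to 124.9 CPM). TRINITY_DN2391_c6_g11_i1 was at 26.88 and 53.41 CPM at 20 °C and at 3.583 and 5.714 CPM at 24 °C in population 2 (-3.11 ± 0.64, SE, edgeR adjusted p = 1; DESeq2 adjusted p = 6.87e-05). It was lower at 24 °C in the other populations too, by -0.74 ± 0.58 and -1.05 ± 0.58 log2 units in populations 1 and 3. In population 3 the first contig with a lower level was TRINITY_DN124957_c11_g3_i2, at 27.48 and 26.0 CPM at 20 °C and at 11.99 and 6.893 CPM at 24 °C (-1.50 ± 0.33, SE, edgeR adjusted p = 0.278). All 6 of its southern libraries at 24 °C (6.718 to 15.84 CPM) were below all 6 at 20 °C (17.87 to 28.96 CPM), with a southern log2 fold change of -1.04 ± 0.25 (edgeR adjusted p = 0.335) and a northern one of -0.14 ± 0.25. The difference between latitudes for it was -0.89 ± 0.35 (edgeR adjusted p = 0.988).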

How the data were processed

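Per the labels' protocols, pooled RNA of whole male larvae was sequenced as paired ends. The authors deposited raw counts for 34095 Trinity contigs in 24 libraries, and the submitters' processing notes name FastQC 0.11.5, Trimmomatic 0.36, featureCounts and Subread 1.5.1 without roles. The assembly, alignment settings and strandedness were not given in the sources used here. Contigs were kept by edgeR's filterByExpr (minimum count 10, minimum total 15; 31287 contigs), and contigs at 0 in 10 or more of the 24 libraries were left out (191). Counts were scaled by TMM in edgeR 4.0.16 (R 4.3.3). Robust quasi-likelihood F tests used all 24 libraries, with 1 intercept per population and a temperature effect per latitude, and 12 population-by-temperature means for single populations. P-values were adjusted by Benjamini-Hochberg over all tested contigs, with calls at 0.05. SE values and 95% intervals follow from the F statistics. CPM use TMM-scaled totals, and log2 CPM a prior count of 2. Responses used for sign counts, correlations and abundance direction are differences of mean log2 CPM.

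Libraries of a population were paired by the labels, and the mean correlation of deviations between its temperatures was 0.0708, 0.0594 and 0.0793 in populations 1, 2 and 3. Pools of a population have a common origin. P-values of the shared southern response and of the latitude difference cover only variation between such pools and of the response among these populations. Those for single populations and for the difference among populations cover only variation between pools of the same population and temperature. With pools summed, the edgeR adjusted p of TRINITY_DN121930_c0_g1_i6 was 0.947. Contigs were named by the smallest p in each direction at a mean log2 CPM of at least 1, and for the southern response also by the same sign in all 3 populations. The members, lists and rules were chosen with earlier results of these data known. Alternatives used DESeq2 1.42.0, limma 3.58.1, other scalings and filters, and fits without single libraries or populations. The tests were first tested on simulated data with known changes.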

Additional observations from a re-analysis of the deposited data

Results flagged for a closer look

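In 50 groups of 6 southern libraries checked for a value far from the others, 2 were found, and chance alone gives about 5%. TRINITY_DN281742_c0_g1_i1 stood at 12.87 CPM in southern_24 2b, against 10.32 CPM in the next highest library of its group. A contig called in population 3, TRINITY_DN279704_c0_g1_i1, stood at 42.19 CPM in southern_24 3a, against 25.51 CPM in the next highest library.

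The filter on contigs at 0 left out 22 contigs that passed as higher at 24 °C when it was not applied. They are no response shared by southern larvae, since within the southern libraries their counts lay almost wholly in the 24 °C pools of population 2. Their summed counts were 2374 in southern_24 2a and 3404 in southern_24 2b, at most 1 in each of the 6 southern libraries at 20 °C, 0 to 2 in the 24 °C libraries of southern populations 1 and 3 and in northern populations 2 and 3, and 1648 to 2462 in the 4 libraries of northern population 1. These contigs were not among the 31096 tested with the filter, and where their reads come from was not tested.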

How the results depend on the processing

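The number of southern contigs called for temperature was 1 and ranged from 0 to 2 when single southern libraries were left out. The 1 call without southern_20 1b, southern_20 3b or southern_24 3a was not TRINITY_DN121930_c0_g1_i6. The number was 2 with the 12 southern libraries alone and without northern population 1, and 33 without the filter on contigs at 0. Of those 33, 22 were contigs that the filter leaves out, and adjusting the p-values of that fit again over the contigs the filter keeps gave 1. It was 0 with library totals only, with limma-voom, with no replicate block for population, with pools summed, with pool a or pool b only, without northern population 2 and without southern population 1, 2 or 3. DESeq2 called 63 (32 rose, 31 fell). Some of these fits hold fewer libraries, and the cause was not tested for the others. Contigs with an interval within 0.5 log2 units numbered 5500 and 5251 with pool a or b only, and those within 1 log2 unit 14410 with pool b only, where fewer libraries widen intervals.

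Within populations the count in population 3 (10) ranged from 0 to 9 without single libraries, and was 0 with the 12 southern libraries alone, 6 with limma-voom and 103 with DESeq2. In population 1 it was 0 to 3 without single libraries (3 without southern_24 1b) and 2 with DESeq2. In population 2 it was 0 to 4 without single libraries (4 without southern_20 2a and 1 without southern_24 2b), and 12 both with DESeq2 and without the filter on contigs at 0. The difference among populations gave 0 to 2 calls without single libraries (1 without southern_24 2b, 2 without southern_24 3b) and 17 with DESeq2. The difference between latitudes gave 8 without the filter on contigs at 0 and 15 with DESeq2. The share of contigs with the same sign in all 3 populations was 31.7% at 10 CPM or more. The abundant contigs higher at 24 °C made up 38.8% with library totals only, an alternative chosen after the data were seen.

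The share of the sum of squares held by temperature was not past the threshold in any of 7 alternatives (8.84% to 14.5%, exact permutation p 0.111 to 0.444). Alternatives that left out a whole southern population could not have passed, because too few arrangements remain for a p under 0.05. Nothing is concluded from their p-values. A 2-fold change lay outside the interval for 25.9% of contigs under 0 log2 CPM, so depth limits what can be said of scarce contigs.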
